A study of Mus musculus with 4 samples.

Results

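Genes of NAD metabolism are described here across the cell types of the aged mouse kidney: Cd38, Bst1, Nampt, Nnmt, Naprt, Nadk, Sirt1, Sirt3 and Parp1. The 9 genes were selected by symbol from the 31053 genes of the deposited tables, and each symbol matched a single row. They were selected with the comparison of BPTES against DMSO already known, in particular the lower Cd38 of monocytes under BPTES. The values of that comparison are therefore given for these genes as a description, without a test.

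NAD is a coenzyme of redox reactions and a substrate that several enzymes split, releasing nicotinamide. CD38 and its neighbour BST1 (CD157) are surface glycohydrolases that split NAD, sirtuins use it to remove acyl groups from proteins, and PARP1 uses it to attach ADP-ribose to proteins at DNA breaks. NAMPT rebuilds NAD from nicotinamide and NAPRT from nicotinic acid, NADK phosphorylates NAD to NADP, and NNMT methylates nicotinamide so that it leaves the cycle. CD38 is known as a leukocyte surface antigen that increases on inflammatory macrophages, and is regarded as a main consumer of NAD in ageing tissue.

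The mice were males of strain C57BL/6, aged 19 months when treatment began, and received BPTES or its vehicle DMSO for 1 month. BPTES inhibits glutaminase 1 (GLS1), the enzyme that converts glutamine to glutamate. No transgene or Cre line is named in the labels, and the dose and the number of mice behind a library are not given in the sources used here. Each group has 2 libraries, made by mixing 20000 CD45-negative with 9000 CD45-positive cells sorted from digested kidney, so the balance of leukocytes and other cells was set by the sort.

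The libraries held 17907 to 20091 barcodes with 249881074 to 297947661 UMIs (unique molecular identifiers, each standing for 1 captured transcript), and 10849 to 12076 cells per library passed the filters. Pairs of libraries shared 90 to 114 barcodes, at most 0.618% of the smaller library. The cells fell into 55 clusters, of which 47 were named from marker genes and 8, with 4504 of 46738 cells, stayed unnamed. Each name means "like" that type. The 9 genes took no part in the clustering. UMIs were summed per library and class, and 18 classes had at least 20 cells in every library. Levels are CPM, a gene's UMIs scaled to a common total of the class sum, and levels of different genes are not compared. Of the 9 genes, only Nnmt was at 0 UMIs in all 4 libraries of any of these 18 classes, which was so in 9 of them.

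Cd38 (ENSMUSG00000029084) lies at chr5:43868553-43912375 on the plus strand of GRCm38 and Bst1 (ENSMUSG00000029082) at chr5:43818885-43843986 on the same strand. The 24566 bases between these related genes hold 0 annotated genes in GENCODE. Within Cd38 lie a sense intronic transcript, Gm16014, and an antisense one, Gm16015, and reads of Gm16014 could be counted with Cd38.

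Cd38 was most abundant in endothelium, at 319.2 and 296.3 CPM in the DMSO libraries (mean 307.8 ± 16.2, SD, n = 2), followed by B cells at 247.3 and 210.2 CPM (228.8 ± 26.2, SD, n = 2). The DMSO libraries of these classes did not overlap. Plasmacytoid dendritic cells, which secrete interferon, came next at 93.5 ± 5.37 CPM (SD, n = 2), above every DMSO library of the classes below them. Monocytes (52.5 ± 17.6 CPM), T cells (51.9 ± 3.10 CPM), macrophages (48.7 ± 25.6 CPM) and natural killer cells (38.4 ± 16.7 CPM; each SD, n = 2) overlapped and had no order beyond the spread of their libraries. Dendritic cells (23.8 ± 2.76 CPM) overlapped with cycling cells (21.9 ± 1.24 CPM), and innate lymphoid cells (14.1 ± 5.40 CPM) with neutrophils (12.1 ± 1.28 CPM; each SD, n = 2).

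The nephron stood far below. The 7 tubule classes had 0.372 to 3.27 CPM of Cd38 as DMSO means, and the proximal tubule, the main resorptive segment, had 34 and 44 UMIs in 5470 and 4739 DMSO cells. A Cd38 UMI was found in 0.603% and 0.907% of these proximal tubule cells (exact 95% intervals 0.416 to 0.846% and 0.657 to 1.22%), which is used here as a floor. Whether these UMIs come from free RNA or from low expression was not tested. In endothelium the share was 89.6% and 90.6% of DMSO cells, at a median depth of 11330 and 13017.5 UMIs, below the 17171.5 and 17946 UMIs of the proximal tubule cells. Intervals on shares cover counting error only. Within endothelium, the cluster led by Plat and Ehd3, genes known from glomerular capillaries, held 420.0 and 432.0 CPM under DMSO and 345.4 and 438.0 CPM under BPTES. Unnamed clusters whose best match was endothelium are not part of the class. Of these, cluster 26, led by Cldn5 and Sox17, had 89.6 and 102.4 CPM under DMSO. The shallow cluster 24, led by D5Ertd615e and Ldb2, had 303.7 and 164.5 CPM under DMSO.

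**Figure D1:**
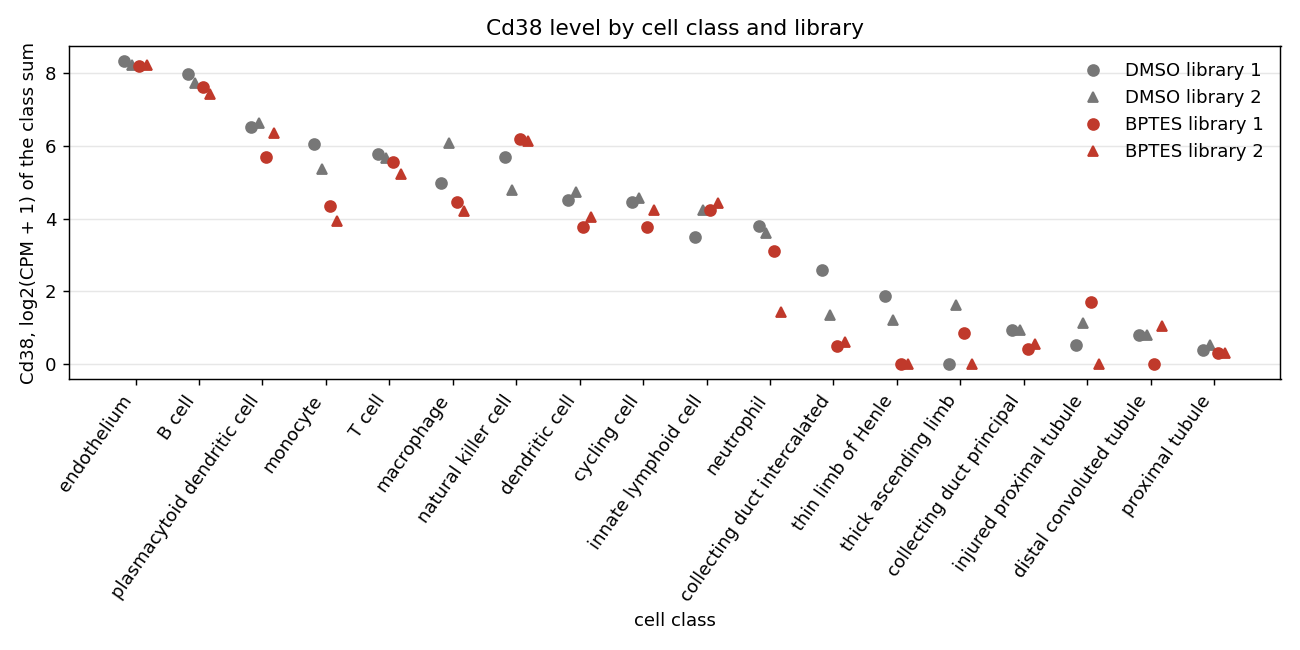
Cd38 level on a log2(CPM + 1) scale (vertical axis) in 18 cell classes (horizontal axis, ordered by the DMSO mean), with 1 point per library. Endothelium and B cells lead, the tubule classes lie near the bottom, and the BPTES points lie below the DMSO points in monocytes, macrophages and dendritic cells.

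Cd38 was lower under BPTES in monocytes, whose log2 fold change was the most negative of the fitted classes. Their sums held 238 and 165 Cd38 UMIs under BPTES against 1105 and 268 under DMSO, or 19.3 and 14.3 CPM against 65.0 and 40.1 CPM. Both BPTES libraries lay below both DMSO libraries, and the log2 fold change (BPTES over DMSO) was -1.65 (SE 0.27). Dendritic cells had 12.7 and 15.5 CPM under BPTES against 21.8 and 25.7 CPM under DMSO, again without overlap, with a log2 fold change of -0.78 (SE 0.14). In macrophages the BPTES libraries had 20.8 and 17.3 CPM and the DMSO libraries 30.6 and 66.8 CPM, a log2 fold change of -1.36 (SE 0.48). The DMSO libraries stood far apart there, and without the second of them the log2 fold change was -0.69.

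Neutrophils held few Cd38 UMIs, 29 and 6 under BPTES against 40 and 48 under DMSO, and their log2 fold change of -1.40 (SE 0.57) went to -0.75 without the second BPTES library and to -2.83 without the first. Smaller values were found in cycling cells (-0.54, SE 0.26), T cells (-0.31, SE 0.11) and B cells (-0.29, SE 0.14). Among T cells, the cluster led by Lef1 and Sidt1, low in Cd38, made up 8.33% and 18.2% of the class under BPTES against 3.73% and 4.70% under DMSO. Cd38 overlapped between the groups in the T cell clusters led by Ctla4 and Cd4 (49.5 and 35.9 against 47.9 and 44.7 CPM) and by Il23r (33.1 and 29.9 against 34.5 and 27.9 CPM). The cluster led by Ccl5 and Cd8b1 lay apart (66.1 and 65.1 against 82.0 and 68.8 CPM), and so did that led by Lef1 and Sidt1 (5.42 and 4.38 against 16.6 and 10.7 CPM, from 5 to 10 UMIs per library). In endothelium, where Cd38 was highest, the log2 fold change was -0.06 (SE 0.08), with 290.8 and 297.7 CPM under BPTES. The proximal tubule gave -0.56 (SE 0.33) from 24 to 44 UMIs per library, the level used above as a floor.

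Natural killer and innate lymphoid cells lay on the other side. Natural killer cells had 72.4 and 68.7 CPM of Cd38 under BPTES and 50.2 and 26.5 CPM under DMSO, without overlap, though the DMSO libraries held only 60 and 15 UMIs in 92 and 43 cells, too few cells for the fit. Innate lymphoid cells had a log2 fold change of 0.44 (SE 0.38), and their libraries overlapped between the groups. Plasmacytoid dendritic cells, also too few for the fit, were lower under BPTES without overlap. They had 51.0 and 80.8 CPM against 89.7 and 97.3 CPM under DMSO, from 54 to 128 UMIs per library. The share of all genes without overlap was not counted in natural killer and plasmacytoid dendritic cells.

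**Figure D2:**
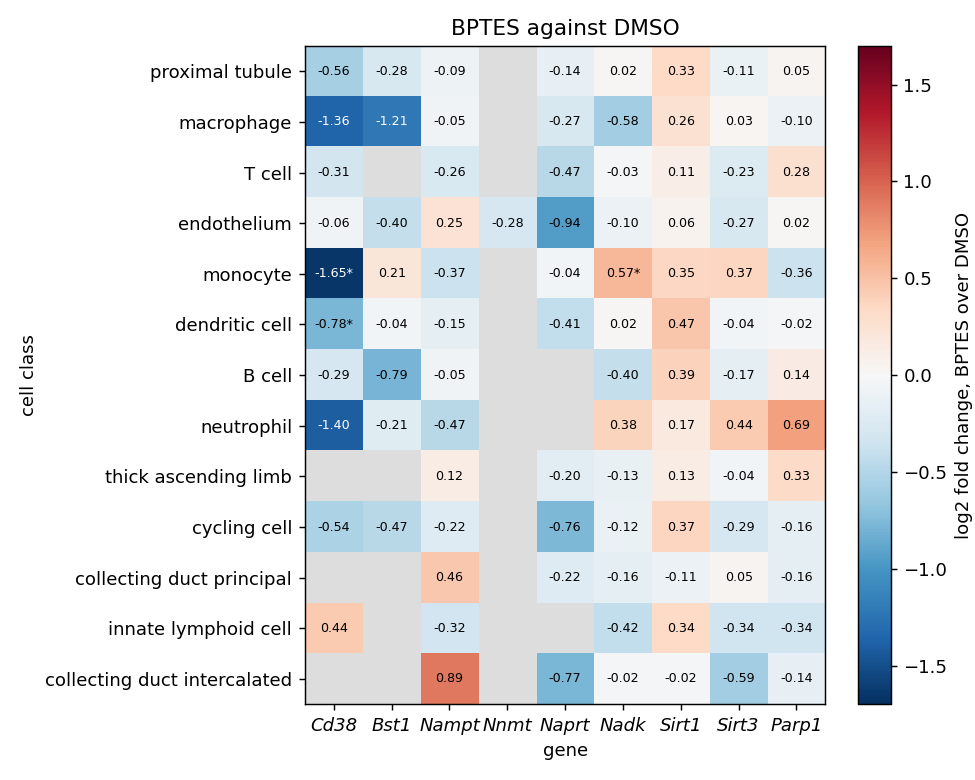
Log2 fold change, BPTES over DMSO, of the 9 genes (horizontal axis) in the 13 classes with at least 50 cells in every library (vertical axis). Blue is lower and red higher under BPTES, grey marks genes under the low-count filter, and an asterisk marks an adjusted p under 0.05 in the fit over all genes, which describes these genes and does not test them. Cd38 in monocytes and dendritic cells and Nadk in monocytes carry one.

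Each fit covered all genes of a class that passed the low-count filter. Calls of the 9 genes describe them and do not test them, since the genes were selected with this comparison known. Of the 9 genes, 8 passed in monocytes and 2 of them were called, Cd38 lower and Nadk higher, where 5.61% of all genes tested were called. In dendritic cells 8 passed and 1 was called, Cd38, where 6.05% of all genes were called. In the other 11 classes, 6 to 9 of the genes passed and none was called, with 0% to 1.04% of all genes called. The monocyte calls of Cd38 and Nadk were lost without either BPTES library and at a 25% mitochondrial limit, and the dendritic cell call of Cd38 was lost without either BPTES library and without the second DMSO library. Lack of overlap between 2 and 2 libraries was common among all genes tested. Genes lower under BPTES without overlap made up 34.5% in the proximal tubule, 27.2% in macrophages, 27.1% in T cells, 22.9% in endothelium, 29.6% in monocytes, 25.6% in dendritic cells, 25.8% in B cells, 16.7% in neutrophils, 17.6% in cycling cells, 25.3% in principal, 36.9% in intercalated and 19.2% in innate lymphoid cells. Genes higher without overlap made up 19.6% in the proximal tubule, 28.2% in macrophages, 20.6% in T cells, 20.2% in endothelium, 27% in monocytes, 31.4% in dendritic cells, 17.9% in B cells, 25.2% in neutrophils, 18% in cycling cells, 20.1% in principal, 10.8% in intercalated and 21.9% in innate lymphoid cells. In the thick ascending limb, where none of the 6 genes that passed lay apart, these shares were 31.6% and 7.82%. The median log2 fold change over the genes that passed was 0.09 in monocytes, -0.04 in dendritic cells and -0.19 in macrophages, against -0.01, 0.00 and -0.01 over all genes tested.

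The Cd38 difference in monocytes showed both in the share of cells with a UMI and in the UMIs per positive cell. A Cd38 UMI was found in 13.2% and 11.6% of BPTES monocytes (exact 95% intervals 10.3 to 16.5% and 8.81 to 14.97%) and in 32.3% and 26.1% of DMSO monocytes (28.4 to 36.3% and 20.5 to 32.3%). Median depth was 20970 and 21915 UMIs per BPTES monocyte and 25407 and 24198.5 per DMSO monocyte. With each cell thinned to 5000 UMIs, which left out 15, 6, 7 and 1 shallower cells, the shares were 3.88% and 2.95% under BPTES and 17.2% (94 of 548 cells) and 8% (18 of 225 cells) under DMSO. The order of the groups was unchanged by thinning, and every share lay above the thinned share of the proximal tubule, 0.061% to 0.310%.

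Monocytes with at least 5 Cd38 UMIs numbered 13 of 479 and 9 of 447 under BPTES (2.71% and 2.01%) and 89 of 555 and 19 of 226 under DMSO (16.0% and 8.41%). Positive monocytes held on average 3.78 and 3.17 UMIs under BPTES against 6.17 and 4.54 under DMSO. Any Cd38 UMI was found in 16.5% and 12.7% of BPTES macrophages and in 16.8% and 37.6% of DMSO macrophages, so the first library of each group differed little, at median depths of 13539 and 14080 against 15622.5 and 19364.5 UMIs. In macrophages, cells with at least 5 UMIs were 1.32% and 0.925% of those given BPTES, against 3.79% and 10.5% of the DMSO cells.

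The monocyte class held 2 clusters. Cluster 15 was led by Fn1, Chil3 and F13a1, genes of classical monocytes, and cluster 22 by Adgre4, Cd300e and Ace, genes of nonclassical, patrolling monocytes. The 10 leading genes of cluster 15 also held Cd5l, which was a leading gene of macrophage cluster 29 too. Cluster 15 accounted for 51.8% and 57.3% of the class under BPTES, against 68.8% and 62.0% in the DMSO libraries. Of the Cd38 UMIs of the class, 1708 lay in cluster 15 and 68 in cluster 22. Cluster 15 had 25.7 and 17.7 CPM under BPTES and 75.7 and 48.4 CPM under DMSO. Cluster 22 held 4.12 and 4.62 CPM under BPTES and 10.4 and 7.38 CPM under DMSO, from 10 to 29 UMIs per library. Fitted alone, in an analysis chosen after seeing the data, the log2 fold change of Cd38 was -1.53 (SE 0.26) in cluster 15 and -1.09 (SE 0.41) in cluster 22, and neither was called (1.84% and 0.673% of all genes were).

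Most macrophage markers were also lower under BPTES in monocytes, macrophages and dendritic cells. Other classes are not given here, so nothing particular to the classes with lower Cd38 is read. In monocytes 7 of 7 markers of macrophages (C1qa, C1qb, C1qc, Adgre1, Cd81, Mrc1 and Apoe) were lower under BPTES without overlap, none was at 0, and their summed level was 6117 and 4553 CPM under BPTES against 11744 and 10164 CPM under DMSO. In cluster 15 the sums were 7192 and 5439 against 13551 and 11918 CPM, while in cluster 22 they overlapped between the groups (2059 to 3547 against 2503 to 3257 CPM). Cd38 itself lay apart in cluster 22 (4.12 and 4.62 against 10.4 and 7.38 CPM). In macrophages themselves 6 of 7 were lower without overlap (14064 and 13337 against 18546 and 26087 CPM), and in dendritic cells 5 of 7 (2439 and 2894 against 3720 and 6015 CPM). Over all genes tested, 29.6% in monocytes, 27.2% in macrophages and 25.6% in dendritic cells were lower without overlap. The part of these markers in the Cd38 values was not tested.

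Among macrophage clusters, cluster 4, led by Ccl8 and C1qa, had 13.2 and 9.55 CPM of Cd38 under BPTES and 23.3 and 68.7 CPM under DMSO. Cluster 18, led by C1qa and C1qc, had 28.8 and 27.5 CPM against 44.1 and 65.0 CPM. Cluster 29, led by Arg1 and Cd5l, was shallow, with 0 to 10 Cd38 UMIs per library. Both dendritic clusters, one led by Cd209a and one by Xcr1, were lower under BPTES without overlap (10.4 and 16.5 against 21.9 and 23.0 CPM, and 15.4 and 14.3 against 21.6 and 31.6 CPM). The unnamed cluster 10, led by Arhgap22 and Negr1, had 11.0 and 12.9 CPM under BPTES and 47.9 and 109.0 CPM under DMSO, from 8 to 118 UMIs.

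**Figure D3:**
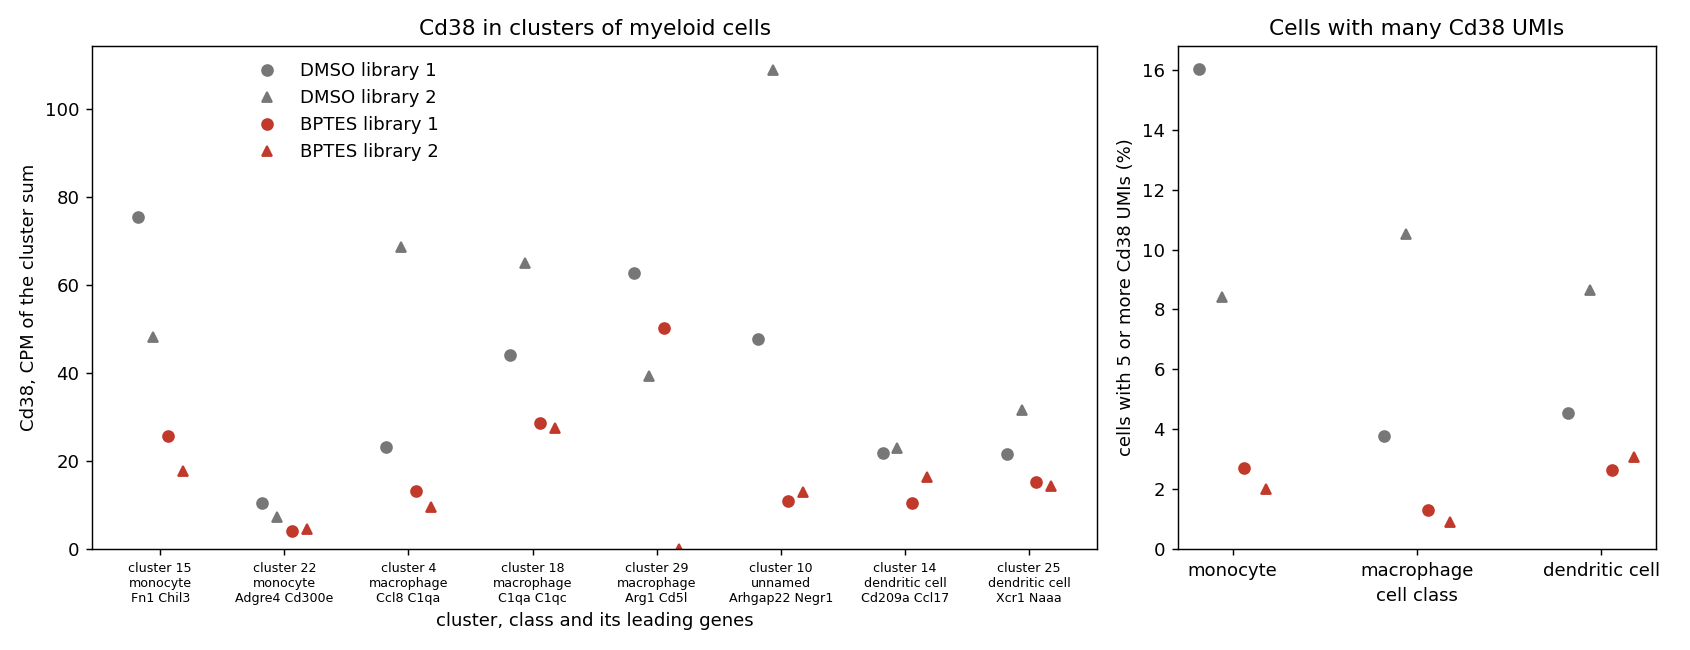
Left, Cd38 in CPM of the cluster sum (vertical axis) for 8 clusters of myeloid cells and their neighbours (horizontal axis, with class and leading genes). Right, percent of cells with at least 5 Cd38 UMIs in 3 classes. Each point is a library. In monocyte cluster 15 the BPTES libraries sit at 25.7 and 17.7 CPM and the DMSO libraries at 75.7 and 48.4 CPM.

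Bst1 had a distribution of its own. It was highest in the thin limb of Henle, a segment of the medulla that takes part in concentrating urine, with 919.1 and 431.7 CPM under BPTES and 632.6 and 715.4 CPM under DMSO. These libraries overlapped, and 64.5% to 73.1% of thin limb cells held a Bst1 UMI, against 0.184% to 0.443% of proximal tubule cells. At a Leiden resolution of 2, where 44 rather than 67 cells of the first DMSO library were named thin limb and 34 rather than 11 urothelium, Bst1 was at 910.8 and 755.9 CPM under DMSO, and at 182.7 and 21.0 CPM in the urothelium. Neutrophils were next, at 101.4 and 126.2 CPM under BPTES and 111.4 and 145.2 CPM under DMSO, which overlapped too. Endothelium followed, and within it the cluster led by Plvap and Selp, genes of fenestrated and venous vessels, held 70.8 to 77.0 CPM.

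Under BPTES, Bst1 was lower in macrophages, at 7.09 and 4.91 CPM against 11.2 and 16.4 CPM under DMSO. The libraries did not overlap and the log2 fold change was -1.21 (SE 0.25). Endothelium had 33.3 and 36.0 CPM against 40.1 and 50.8 CPM (-0.40, SE 0.13), and the log2 fold change was -0.20 without the second DMSO library. The Plvap and Selp cluster made up 19.4% of the endothelium of that library against 12.0% to 13.6% in the others, and within it the groups overlapped (76.8 and 70.8 against 71.5 and 77.0 CPM). The largest endothelial cluster lay apart, at 27.0 and 32.2 against 36.0 and 46.9 CPM. In monocytes, where the neighbouring Cd38 differed most, Bst1 had 21.7 and 25.01 CPM under BPTES and 17.7 and 23.8 CPM under DMSO, with overlap and a log2 fold change of 0.21 (SE 0.18). Within the class, cluster 15 lay narrowly apart, at 29.2 and 32.7 CPM under BPTES against 20.2 and 29.1 CPM under DMSO. Cluster 22 overlapped (3.57 and 3.30 against 4.67 and 2.95 CPM). Bst1 overlaps Fbxl5 on the opposite strand.

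Nampt (ENSMUSG00000020572, chr12:32819545-32853349, plus strand) was detected in all 18 classes. Its DMSO mean was highest in the thin limb, where single libraries had 140.6 and 182.3 CPM (242.2 and 192.4 CPM at a Leiden resolution of 2, where more cells were split off as urothelium), and next in neutrophils, whose 119.5 and 111.2 CPM lay above the 101.9 and 101.1 CPM of monocytes. The distal convoluted tubule, at 65.3 and 110.7 CPM, overlapped with monocytes. T cells, natural killer cells and innate lymphoid cells had the lowest levels, 21.7 to 35.1 CPM under DMSO. The classes parted in how the groups compared. Monocytes had 81.0 and 74.8 CPM under BPTES against 101.9 and 101.1 CPM under DMSO (log2 fold change -0.37, SE 0.09), and neutrophils 93.7 and 78.3 against 119.5 and 111.2 CPM (-0.47, SE 0.19). The neutrophil class differed in its make-up: at a Leiden resolution of 2, the cluster led by Cxcl2 and Cxcl3 held 11 and 13 BPTES cells against 30 and 206 DMSO cells. In the neutrophil cluster with 190 and 179 BPTES cells and 204 and 85 DMSO cells, Nampt had 111.2 and 68.2 CPM under BPTES and overlapped with the 113.0 and 98.0 CPM of DMSO. Nampt lay apart in the Cxcl2 and Cxcl3 cluster (101.9 and 91.8 against 139.6 and 115.3 CPM) and in the third neutrophil cluster (72.5 and 88.6 against 129.0 and 114.3 CPM), and it was lower without overlap in both neutrophil clusters of the main clustering. The part of the cluster mix in the neutrophil values was not tested. Nampt overlaps Gdap10, a long noncoding RNA gene on the same strand, so reads of either gene could be split.

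In the collecting duct Nampt was higher under BPTES. Intercalated cells, which secrete acid or base, had 61.8 and 77.6 CPM under BPTES and 37.0 and 44.8 CPM under DMSO, a log2 fold change of 0.89 (SE 0.18). Principal cells, which take up water and sodium, had 113.6 and 112.9 CPM against 91.1 and 77.6 CPM (0.46, SE 0.14). Neither class overlapped between the groups. Mitochondrial UMIs made up 17.1% and 14.5% of the sums of BPTES intercalated cells and 12.1% and 11.1% of the DMSO ones, and their part in the Nampt values was not tested. Among monocytes the Nampt difference lay mainly in the nonclassical cluster 22, with 65.4 and 58.5 CPM under BPTES and 148.2 and 113.7 CPM under DMSO (-1.12, SE 0.16). It was called in that fit, one chosen after seeing the data, where 0.673% of all genes were. That call describes Nampt and does not test it. The classical cluster 15 gave -0.18 (SE 0.10).

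Naprt (ENSMUSG00000022574, chr15:75890956-75894481, minus strand) was a gene of the tubule. The proximal tubule had 23.2 and 20.4 CPM under BPTES and 27.9 and 23.3 CPM under DMSO, and injured proximal tubule had 27.8 and 22.1 CPM under DMSO, which overlapped with it. Leukocyte classes other than innate lymphoid cells lay at 4.18 CPM or below in every DMSO library. Cycling cells, a class named by genes of cell division only, are not counted among the leukocytes here. The gap between the groups in the proximal tubule was narrow (log2 fold change -0.14, SE 0.10). Endothelium had 3.24 and 4.22 CPM under BPTES against 7.05 and 7.08 CPM under DMSO, a log2 fold change of -0.94 (SE 0.26) from 25 to 99 UMIs per library. These levels lie well below those of the proximal tubule, and the part of free RNA in them was not tested. Intercalated cells had 11.4 and 8.02 against 18.8 and 18.5 CPM (-0.77, SE 0.32). Naprt overlaps Eef1d on the same strand, so reads of either gene could be split.

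Nadk (ENSMUSG00000029063, chr4:155562378-155591001, plus strand) was highest in neutrophils and monocytes, cells that use NADPH for the oxidative burst. Under DMSO they had 276.3 ± 57.2 CPM and 258.5 ± 20.9 CPM (SD, n = 2), which overlapped, and every other class had at most 136.0 CPM in each DMSO library. Monocytes had 388.6 and 369.1 CPM under BPTES against 243.7 and 273.3 CPM under DMSO, a log2 fold change of 0.57 (SE 0.10). Neutrophils had 369.3 and 376.2 against 316.7 and 235.8 CPM (0.38, SE 0.23). Their log2 fold change was 0.13 without the second DMSO library, which held most cells of the Cxcl2 and Cxcl3 cluster described above. In that cluster Nadk overlapped between the groups, at 123.8 and 298.4 CPM under BPTES against 222.2 and 149.1 CPM under DMSO. In both neutrophil clusters of the main clustering Nadk was higher under BPTES without overlap, as it was in the other 2 clusters at a Leiden resolution of 2 (346.3 and 353.9 against 308.3 and 288.7 CPM, and 416.2 and 411.1 against 380.2 and 368.7 CPM). Macrophages went the other way, with 80.6 and 74.1 CPM against 94.0 and 136.0 CPM (-0.58, SE 0.18), and -0.30 without the second DMSO library. As whole classes, monocytes, neutrophils and macrophages did not overlap between the groups.

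The 2 monocyte clusters differed in Nadk level. Nonclassical cluster 22 had 620.3 and 597.1 CPM under BPTES and 468.2 and 532.3 CPM under DMSO, and it made up more of the class under BPTES. Within it the log2 fold change was 0.26 (SE 0.12). Classical cluster 15 had 291.7 and 288.2 CPM against 199.8 and 207.5 CPM, and a log2 fold change of 0.51 (SE 0.09), called in a fit also chosen after seeing the data, where 1.84% of all genes were. This call, too, describes the gene and does not test it.

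**Figure D4:**
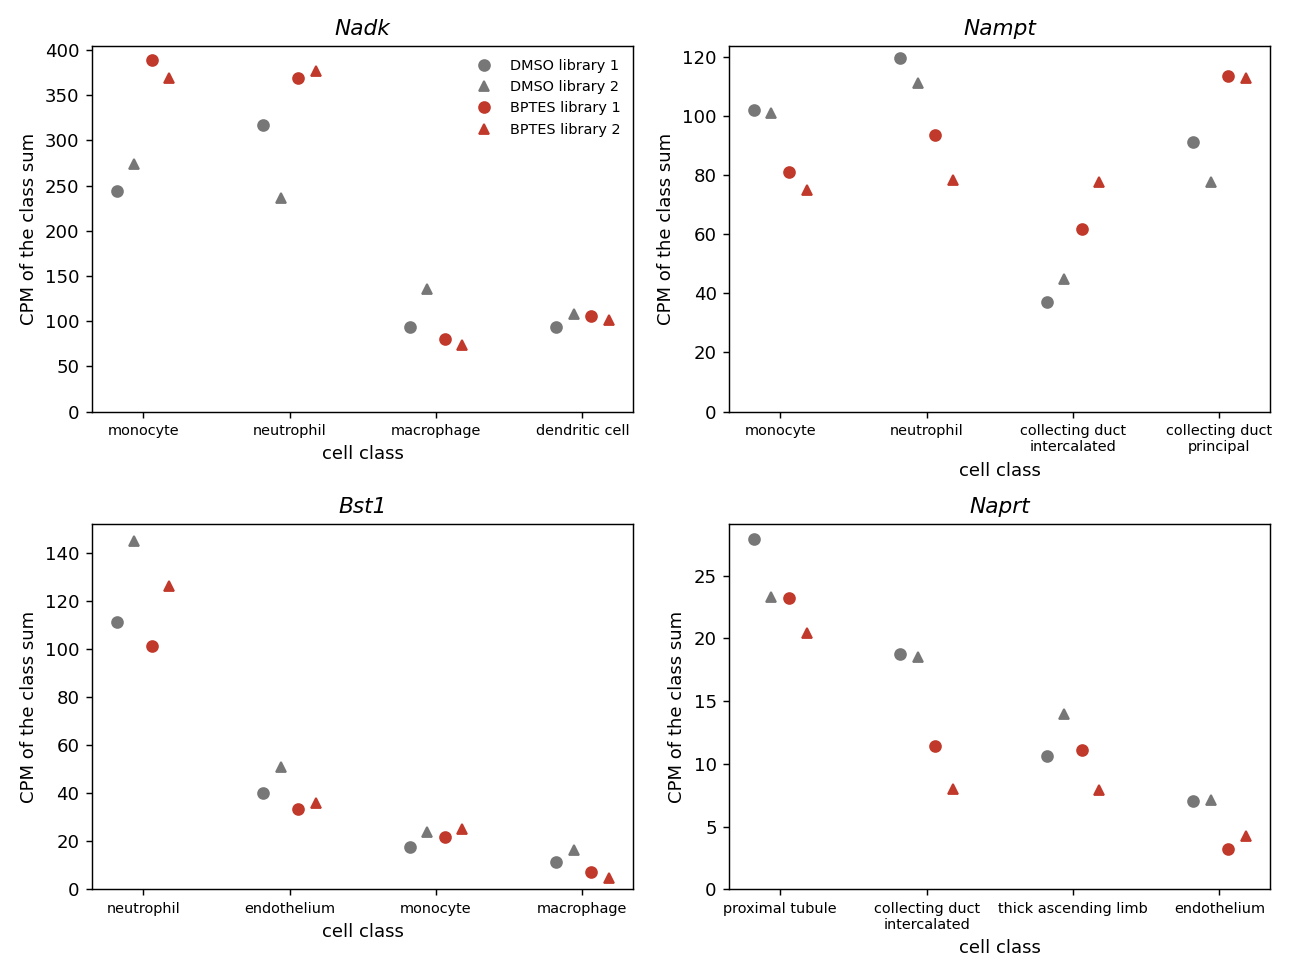
Level in CPM of the class sum (vertical axes) of Nadk, Nampt, Bst1 and Naprt in 4 selected classes each, with 1 point per library. Nadk in monocytes sits at 388.6 and 369.1 CPM under BPTES and 243.7 and 273.3 CPM under DMSO, and Nampt in intercalated cells at 61.8 and 77.6 against 37.0 and 44.8 CPM.

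Nnmt (ENSMUSG00000032271, chr9:48591877-48605153, minus strand) was a gene of stroma. The fibroblast cluster, led by Mgp and Col3a1, had 29.8 and 62.1 CPM under BPTES and 53.0 and 61.9 CPM under DMSO, which overlapped. The unnamed cluster 43, led by Dcn and Gpc6, had 20.3 to 32.2 CPM. Among classes with at least 20 cells in every library, injured proximal tubule (5.39 to 14.7 CPM) and endothelium (1.47 to 3.72 CPM) were highest. Endothelium alone passed the filter, with a log2 fold change of -0.28 (SE 0.45). Over all cells summed, Nnmt gave -1.73 (SE 0.71), and fibroblasts numbered 19 and 16 in the BPTES libraries against 37 and 184 in the DMSO ones. The part of their number in the value was not tested.

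Sirt1 (ENSMUSG00000020063, chr10:63319005-63381704, minus strand), a nuclear deacetylase, was detected in every class, and its lowest class mean, in dendritic cells, was 37.1% of its highest, in endothelium. Dendritic cells had 32.0 and 25.9 CPM under BPTES and 19.7 and 21.3 CPM under DMSO (log2 fold change 0.47, SE 0.12). Of the dendritic cells, the cluster led by Cd209a held 60.6% and 59.1% under BPTES against 76.2% and 70.6% under DMSO. Within that cluster Sirt1 was at 32.0 and 23.7 CPM under BPTES against 20.4 and 20.3 CPM, and in the cluster led by Xcr1 at 32.1 and 28.5 against 18.0 and 23.4 CPM. Monocytes had 35.0 and 33.2 against 26.1 and 28.4 CPM (0.35, SE 0.11), and the proximal tubule 30.9 and 33.5 against 27.2 and 27.3 CPM (0.33, SE 0.10). These groups did not overlap, nor did those of macrophages (0.26, SE 0.10), B cells (0.39, SE 0.19), cycling cells (0.37, SE 0.19) and innate lymphoid cells (0.34, SE 0.24). In the proximal tubule Sirt1 ranged from 7.54 to 57.6 CPM between the larger clusters, whose shares of the class differed between the groups, and 5 of 9 clusters overlapped while 4 were higher under BPTES. Among B cells, cluster 49 held 20.96% of the second DMSO library against 1.38% to 2.96% of the others. At a Leiden resolution of 2, the largest B cell cluster overlapped in Sirt1 (60.2 and 63.0 against 64.8 and 44.4 CPM), while a second one, with 15 to 59 Sirt1 UMIs per library, lay apart (101.5 and 89.8 against 45.1 and 46.0 CPM). In the main clustering the larger B cell cluster lay apart (66.3 and 66.1 against 62.4 and 44.6 CPM). In intercalated (-0.02, SE 0.29) and principal cells (-0.11, SE 0.22) the libraries overlapped. All classes come from the same 4 libraries, so these values are not independent of each other.

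Sirt3 (ENSMUSG00000025486, chr7:140863666-140882309, minus strand), the main deacetylase of mitochondria, was highest in the proximal tubule, a segment rich in mitochondria. It had 82.6 and 68.1 CPM there under BPTES and 91.6 and 81.1 CPM under DMSO, with overlap (-0.11, SE 0.10). Endothelium and neutrophils had the lowest DMSO means, 11.4% and 9.31% of that of the proximal tubule. Intercalated cells had 33.0 and 33.7 CPM under BPTES against 59.6 and 52.1 CPM under DMSO, without overlap (-0.59, SE 0.18). The higher mitochondrial share of the BPTES intercalated sums given above applies here too, and to Naprt in these cells, and its part was not tested. Monocytes had 15.3 and 13.2 against 12.5 and 9.27 CPM (0.37, SE 0.18). Sirt3 overlaps Ric8a and Psmd13 on the opposite strand.

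Parp1 (ENSMUSG00000026496, chr1:180568924-180601254, plus strand) was highest in B cells, at 168.3 and 156.4 CPM under BPTES and 164.5 and 137.8 CPM under DMSO. Cycling cells followed with 107.6 and 108.5 CPM under DMSO, and neutrophils were lowest with 7.15 and 9.55 CPM. Monocytes had 47.5 and 48.2 CPM under BPTES against 57.9 and 66.8 CPM under DMSO, without overlap (-0.36, SE 0.11). T cells had 72.5 and 58.2 against 58.1 and 51.5 CPM (0.28, SE 0.11). In neutrophils the value of 0.69 (SE 0.29) rested on 22 to 57 UMIs per library.

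**Figure D5:**
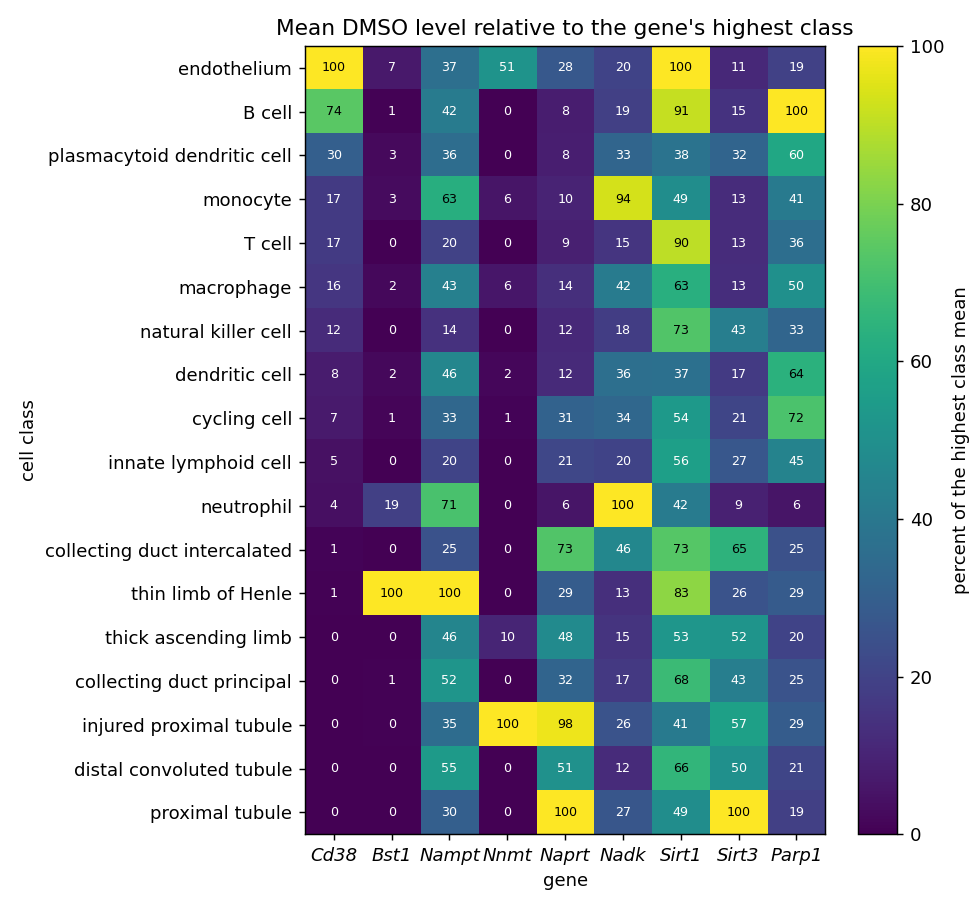
Mean DMSO level of each gene (horizontal axis) in 18 classes (vertical axis), as percent of that gene's highest class. Cd38 peaks in endothelium, Bst1 and Nampt in the thin limb, Nnmt in injured proximal tubule, Naprt and Sirt3 in the proximal tubule, Nadk in neutrophils, Sirt1 in endothelium and Parp1 in B cells.

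Many classes join clusters whose shares differed between libraries, and the part of that mix in the class values was not tested. Of 30 pairs of gene and class whose groups lay apart and whose class had at least 2 clusters with 20 cells in every library, 8 showed the order of the class in each of those clusters. In 20 pairs at least 1 cluster overlapped between the groups, and in 5 a cluster lay apart the opposite way, as for Parp1 in T cells and neutrophils and for Nampt in endothelium. Cd38, Nampt, Nadk and Sirt3 in monocytes and Cd38 and Sirt1 in dendritic cells held in both clusters of their class, as did Nampt and Nadk in neutrophils. These counts were not made over all genes, so the share expected of any gene is not known. Lack of overlap was common among all genes at the level of the classes, and nothing particular to these genes is read here.

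The other genes of the pathway were tested as a list of 57, of which 56 were in the tables and 54 passed the filter in at least 1 class. In edgeR's quasi-likelihood fits over all genes, 5 of 511 pairs of gene and class passed an adjusted p of 0.05 (0.978%), against 1.26% over all genes and 13 classes. Of these pairs, 3 were higher and 2 lower under BPTES, 89 passed an unadjusted p of 0.05 (17.4%, against 14.7% over all genes), and the median log2 fold change was -0.03. None passed among the genes of synthesis from tryptophan (54 pairs, 9 at an unadjusted p under 0.05), of NADP and transport (45 pairs, 4) and among the other sirtuins (58 pairs, 2). Pairs at an unadjusted p under 0.05 numbered 34 of 194 for the ADP-ribosyl transferases with Sarm1, 14 of 71 for completion and salvage, 10 of 52 for ADP-ribose removal, and 16 of 37 for nicotinamide oxidation and extracellular nucleotide enzymes. DESeq2 called 14 pairs over the whole list (2.74%, against 2.13% over all genes). The 5 pairs lay in monocytes, dendritic cells and macrophages, the classes with the most calls over all genes, so the single genes below are named as values of those classes and nothing particular to the list is read from them.

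Parp8, a mono-ADP-ribosyl transferase, rose under BPTES in both monocytes and dendritic cells. After TMM scaling, monocytes had 260.5 and 245.1 CPM of Parp8 under BPTES and 191.4 and 188.5 CPM under DMSO, and edgeR gave a log2 fold change of 0.41 (SE 0.09, adjusted p = 0.0401). Dendritic cells had 448.6 and 424.7 CPM of Parp8 against 347.3 and 310.2 CPM, a log2 fold change of 0.41 (SE 0.07, edgeR adjusted p = 0.0275). The groups did not overlap in either class. On plain CPM, Parp8 was at 348.8 and 336.5 CPM under BPTES against 286.8 and 248.9 CPM in the Cd209a cluster, and at 583.7 and 531.0 against 475.7 and 440.8 CPM in the Xcr1 cluster, whose share of the class was higher under BPTES. Both monocyte clusters lay apart between the groups too (273.1 and 244.5 against 202.9 and 198.9 CPM of Parp8 in cluster 15, and 239.8 and 225.6 against 150.7 and 139.5 CPM in cluster 22). Macrophages had 361.0 and 380.6 CPM of Parp8 against 318.6 and 273.4 CPM, which did not pass.

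Pnp, the purine nucleoside phosphorylase that releases nicotinamide from its riboside, fell in macrophages. It had 74.5 and 67.7 CPM after TMM scaling under BPTES and 102.1 and 100.7 CPM under DMSO (-0.51 as log2 fold change with SE 0.08, edgeR adjusted p = 0.0455). Pnp2 is a close copy of Pnp, and reads shared by both could be split or dropped by the counting. Macrod2, which removes ADP-ribose from proteins, fell in dendritic cells from 10.1 and 13.1 CPM under DMSO to 4.86 and 6.51 CPM under BPTES (-1.03, SE 0.21, edgeR adjusted p = 0.0380). On plain CPM, Macrod2 was at 6.59 and 8.50 CPM under BPTES against 12.1 and 16.7 CPM in the Cd209a cluster, and at 2.92 and 4.12 against 4.63 and 5.16 CPM in the Xcr1 cluster. At a Leiden resolution of 2, the larger Xcr1 cluster overlapped (1.53 and 2.44 against 3.22 and 1.51 CPM). The smaller one lay apart (4.35 and 5.26 against 5.67 and 9.37 CPM). Proximal tubule clusters held 74.5 to 442.4 CPM of Macrod2 at that resolution. The part of free RNA in the dendritic cell values was not tested. Aox3, an aldehyde oxidase, rose in monocytes from 11 and 2 UMIs in 555 and 226 DMSO cells to 44 and 25 UMIs in 479 and 447 BPTES cells (2.44, SE 0.51, edgeR adjusted p = 0.0390). On plain CPM, Aox3 was at 2.19 and 1.17 CPM under BPTES against 0.563 and 0 CPM in monocyte cluster 15. In cluster 22, whose share of the class was higher under BPTES, it was at 6.87 and 4.95 against 1.08 and 1.48 CPM. All 5 calls were lost without either BPTES library, and those of Parp8 and Macrod2 in dendritic cells also without the second DMSO library. The calls of Parp8 and Aox3 in monocytes were lost at a 25% mitochondrial limit, with doublets kept and when replicate number was fitted as a block, that of Aox3 also with DESeq2, and that of Pnp with RLE scaling and at a Leiden resolution of 2.

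The 5 genes whose DMSO level followed that of Cd38 most closely over the 18 classes were Rcn3 (Pearson r = 0.962 on log2(CPM + 1)), Ptp4a3 (0.945), St6galnac4 (0.939), Pecam1 (0.934) and Ncoa3 (0.932), out of 13637 genes. Pecam1 encodes the endothelial adhesion molecule CD31 and was at 1603 CPM in endothelium and 1.37 CPM in the proximal tubule. Among the 9 genes, Parp1 had the highest r with Cd38 (0.46), Bst1 had 0.235, and Naprt and Sirt3 had -0.743 each. The classes share libraries and differ in depth, and these values are a description.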

How the data were processed

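Single-cell RNA libraries (10x GEM-X 3′ chemistry) came from 4 kidney samples. The deposited tables hold unnormalised UMI counts of each gene in each barcode, made by the authors with Cell Ranger 8.0.1 on mm10, per the submitters' processing notes. Coordinates are from GENCODE M21 (GRCm38), which holds 30934 of the 31053 gene identifiers.

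Barcodes with at least 500 UMIs, 300 genes and at most 50% mitochondrial UMIs were kept. Simulated doublets were used to score cells, and the top 0.4% per 1000 barcodes (3867 cells) were removed. After scaling to 10000 per cell, 3000 variable genes without the 9 genes and mitochondrial genes gave 40 components, and Leiden clustering used 15 neighbours and resolution 1 (scanpy 1.11.5, leidenalg 0.10.2). Clusters took the name of the best-matching marker list. A cluster stayed unnamed with under 3 markers detected in 20% of its cells, with leading genes of another type, or where it was shallow without a marker among its 10 leading genes.

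UMIs were summed per library and class, and 13 classes were fitted with edgeR 4.0.16 (quasi-likelihood, TMM, filterByExpr, R 4.3.3), adjusted by Benjamini-Hochberg within a class. CPM values use the plain class sum unless TMM scaling is named. Named are the 9 genes, every called gene of the wider list and the 5 genes most like Cd38. The genes, lists and rules were chosen with earlier results of these data known. Alternatives were DESeq2 1.42.0, RLE scaling, no filter, a replicate block, each library left out, a 25% mitochondrial limit, doublets kept and resolution 2. In simulated monocyte sums of 12556 genes, 67 of 98 genes changed by a log2 of 1 and 76 of 93 changed by 2 were called. These shares do not cover how far the real monocyte calls changed with the processing, which is given below. Labels do not say that libraries came from separate mice, so p-values measure only the spread between these libraries. A further marker used in naming clusters is not reported here. No sequences were used.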

Additional observations from a re-analysis of the deposited data

Results flagged for a closer look

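In 4 genes, among the 5 of the 9 that were tested in all 13 classes, every BPTES library lay below every DMSO library in some classes and above them in others. The difference between the classes was not tested, and with 2 libraries a group a lack of overlap is common among all genes. Of the 7490 genes tested in all 13 classes, 77.4% were likewise lower without overlap in some class and higher in another, so the pattern is not particular to these 4. The values are log2 fold changes, BPTES over DMSO.

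Nampt was lower in the proximal tubule (-0.09), T cells (-0.26), monocytes (-0.37), neutrophils (-0.47), cycling cells (-0.22) and innate lymphoid cells (-0.32). It was higher in endothelium (0.25), principal cells (0.46) and intercalated cells (0.89). Nadk was lower in macrophages (-0.58), principal cells (-0.16), innate lymphoid cells (-0.42) and intercalated cells (-0.02), and higher in monocytes (0.57) and neutrophils (0.38). The Nadk value of intercalated cells ran from -0.18 to 0.12 with each library left out in turn, so its sign was not steady.

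Sirt3 was lower in endothelium (-0.27), cycling cells (-0.29) and intercalated cells (-0.59), and higher in monocytes (0.37). Parp1 was lower in macrophages (-0.10), monocytes (-0.36), cycling cells (-0.16), principal cells (-0.16), innate lymphoid cells (-0.34) and intercalated cells (-0.14), and higher in T cells (0.28) and neutrophils (0.69).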

How the results depend on the processing

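Of the wider list, 5 pairs of gene and class were called. DESeq2 called 14, no low-count filter 35 and doublets kept 11, and leaving out 1 library gave 2 to 34 (34 without the first DMSO library, 12 without the second, 4 and 2 without the first and second BPTES library). The cause was not tested, though without a filter 686 pairs were tested in place of 511. The share of monocytes with a Cd38 UMI was 16.8 percentage points lower under BPTES (-16.8), -9.16 points after thinning, and -19.9 to -13.7 with each library left out. Over all genes, monocyte calls went from 717 to 4 at a 25% mitochondrial limit, 174 with doublets kept and 2185 without a filter. Dendritic cell calls went from 807 to 1469 without a filter, and to between 14 and 506 with 1 library left out. Macrophage calls went from 145 to 536 with DESeq2. Classes with 0 calls had 18 (B cells), 75 (neutrophils) and 17 (cycling cells) with DESeq2. With 1 library left out, calls ranged from 0 to 1716 in monocytes, 5 to 1330 in macrophages, 0 to 786 in B cells, 8 to 1540 in neutrophils, 2 to 89 in cycling cells, 4 to 1148 in the proximal tubule, 20 to 911 in the thick ascending limb, 10 to 260 in T cells, 78 to 384 in endothelium, 28 to 229 in innate lymphoid cells, 66 to 284 in principal cells and 7 to 129 in intercalated cells. Cd38 in monocytes ranged from -1.93 to -1.26 and in dendritic cells from -0.94 to -0.62 over 11 alternatives each.

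With the replicate number as a block 16 pairs were called, and 418 genes in monocytes and 1325 in dendritic cells. Same-numbered libraries deviated together with correlations of -0.093 to 0.436 over the 13 classes, and the labels do not say what a number stands for, so the numbers were not taken as pairs.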
